A study of Mus musculus with 474 samples.

Results

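The sarcomeric myosin heavy chain genes Myh7, Myh2, Myh1, Myh4 and Myh8 were described in skeletal muscle of Diversity Outbred mice. The members were chosen by gene symbol, and all 5 were among the 20612 genes of the deposited tables and among the 18823 that passed the filter on low counts. The tissue was gastrocnemius, a mixed limb muscle, per the study's methods, and each animal gave 1 poly(A) RNA-seq library. Diversity Outbred mice are an outbred stock bred from 8 inbred founder strains, so animals differ from each other in the founder alleles they carry. Females and males all ate a high-fat, high-sugar diet, and there was no other treatment, no mutant allele and no group on another diet. The labels add a number (17, 18, 19, 21 or 23) that was taken as the generation of outbreeding. The methods do not name 17 and 23 among the generations, so for these the reading rests on the labels alone. This makes 10 groups, with 48, 45, 49, 46 and 47 females and 46, 48, 50, 47 and 48 males in the order of these numbers.

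A myosin heavy chain is the motor subunit of the thick filament, and the isoform that a muscle fibre makes sets how fast the fibre contracts. Myh7 encodes the slow type 1 chain, also made in the heart ventricle. Myh2, Myh1 and Myh4 encode the fast type 2A, 2X and 2B chains, in order from the more oxidative to the more glycolytic fibre, and Myh8 encodes the perinatal chain that is made around birth and again in regenerating fibres. In bulk tissue, fewer fibres of a type and less RNA per fibre cannot be told apart.

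Myh7 (ENSMUSG00000053093) lies on the reverse strand of chromosome 14 at 54970684 to 54994626 (build GRCm38), beside Myh6. The other members stand in a row on the forward strand of chromosome 11, with Myh2 (ENSMUSG00000033196) at 67171027 to 67197517, Myh1 (ENSMUSG00000056328) at 67200052 to 67224575, Myh4 (ENSMUSG00000057003) at 67238029 to 67260446 and Myh8 (ENSMUSG00000055775) at 67277124 to 67308634. These 4 genes take up 137.6 kb, and only 2.535 kb separate the end of Myh2 from the start of Myh1. Their longest annotated transcripts are alike in size, from 6016 bases in Myh4 to 6230 in Myh7, with 39 to 41 exons. Antisense genes of the table overlap 3 members, Mhrt in Myh7, 9430073C21Rik in Myh2 and Myhas in Myh1, and the use of strand in counting is not given in the sources used here. Their read counts in the median animal were 0.0217%, 0.121% and 0.0621% of those of the member.

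The start regions are shown because 4 of the members sit side by side and could be read against each other. All are RefSeq windows of 300 bases in GRCm38.p6, from 250 bases before the RefSeq start site, printed 5′ to 3′ on the strand of the gene: Myh7 at chr14:54994577-54994876 (reverse), Myh2 at chr11:67170777-67171076, Myh1 at chr11:67199852-67200151, Myh4 at chr11:67237562-67237861 and Myh8 at chr11:67276874-67277173 (all forward). Capitals mark a TATA box (TATAAA), a match of the 10-base MEF2 consensus, and a stretch of 14 bases found in all of the chromosome 11 members.
Myh7: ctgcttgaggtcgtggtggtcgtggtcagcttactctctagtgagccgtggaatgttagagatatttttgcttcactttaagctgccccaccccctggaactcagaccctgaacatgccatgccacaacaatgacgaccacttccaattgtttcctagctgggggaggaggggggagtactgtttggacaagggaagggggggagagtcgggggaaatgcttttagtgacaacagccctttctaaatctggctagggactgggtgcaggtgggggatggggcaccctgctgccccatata
Myh2: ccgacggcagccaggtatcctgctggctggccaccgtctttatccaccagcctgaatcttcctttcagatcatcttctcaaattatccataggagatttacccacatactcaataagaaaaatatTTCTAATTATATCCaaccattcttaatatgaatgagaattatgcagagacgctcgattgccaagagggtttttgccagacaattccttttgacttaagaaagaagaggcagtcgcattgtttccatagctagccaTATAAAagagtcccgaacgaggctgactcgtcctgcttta
Myh1: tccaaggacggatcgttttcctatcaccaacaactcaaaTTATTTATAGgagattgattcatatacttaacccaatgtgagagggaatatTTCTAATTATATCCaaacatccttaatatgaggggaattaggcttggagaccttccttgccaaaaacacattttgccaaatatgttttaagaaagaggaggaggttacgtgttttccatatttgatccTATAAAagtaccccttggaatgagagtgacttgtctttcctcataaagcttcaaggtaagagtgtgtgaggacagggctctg
Myh4: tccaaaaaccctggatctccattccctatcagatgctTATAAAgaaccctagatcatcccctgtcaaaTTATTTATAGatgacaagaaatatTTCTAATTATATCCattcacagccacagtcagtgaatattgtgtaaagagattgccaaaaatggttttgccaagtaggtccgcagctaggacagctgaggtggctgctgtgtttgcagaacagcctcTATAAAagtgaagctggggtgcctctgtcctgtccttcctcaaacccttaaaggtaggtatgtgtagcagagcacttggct
Myh8: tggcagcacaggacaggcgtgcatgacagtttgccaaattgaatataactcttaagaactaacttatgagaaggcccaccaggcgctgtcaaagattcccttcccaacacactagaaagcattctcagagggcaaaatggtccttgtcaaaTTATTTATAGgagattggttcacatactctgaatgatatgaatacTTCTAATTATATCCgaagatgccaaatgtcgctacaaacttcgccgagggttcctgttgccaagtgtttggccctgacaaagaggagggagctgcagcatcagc

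The stretch TTCTAATTATATCC began at -125 in Myh2, -160 in Myh1, -158 in Myh4 and -54 in Myh8, counted from the start site, and no other of the 32544 RefSeq promoter windows held it. Myh1, Myh4 and Myh8 also had the same MEF2 match, TTATTTATAG, at -211, -182 and -99, whereas Myh2 and Myh7 had none; 3.16% of all windows held a MEF2 match. A TATAAA stood at -32 in Myh1, at -31 and -213 in Myh4, and after the start site, at 11, in Myh2. On the reverse strand it stood inside the MEF2 match, at -208 in Myh1, -179 in Myh4 and -96 in Myh8, which had no other, and 13.6% of all windows had TATAAA on either strand. The other letters searched on both strands were the E-box CANNTG (2 matches in Myh7, 3 in Myh4 and 2 in Myh8; in 72.3% of windows), the MCAT motif CATTCC (1 match each in Myh7, Myh1 and Myh4; in 14.6%) and the CArG box (1 match in Myh4; in 1.64%). RefSeq has another Myh7 window, at chr14:54994500-54994799 (reverse, not shown), with 2 E-box matches and no MCAT match. These are letter matches, not measured binding.

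Levels are given as CPM, the read count of a gene per 1000000 counts of its library, on library totals scaled by the trimmed mean of M-values (TMM), and the libraries held 35902446 to 165723762 counts of reads, median 79308916. The 5 members together took 6.38% to 9.91% of each library, median 8.10%. Counting error was small for all but the perinatal gene, since Myh8 had 117 to 6680 counts per library with a median of 533.6, and Myh7 had at least 16133. Genes that mark muscle fibres were abundant in the tissue (median 13148 CPM of Ckm and 21404 CPM of Acta1). Among markers of heart muscle, the median was 0.0721 CPM for the troponin Tnni3, 2.35 CPM for Tnnt2 and 13.1 CPM for Myh6. A total of 5 libraries had sex-linked transcripts that went against their sex label (3 labelled female and 2 labelled male), among them DO048 and DO308, whose data columns appear at each other's position in the sample order, and values without the 5 are given for the sex tests of the members over all animals and for their ratios, whereas those within generations and blocks and those of the gene lists include them. The library numbers were divided into 5 stretches, called blocks here, with 91 to 96 libraries each and both sexes in all. Between blocks the numbers jump only from block 1 to block 2, and the later borders were imposed at every 96 numbers. The labels do not say that any border marks a batch.

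Because the transcripts differ little in length, levels between the genes were compared per kilobase of the longest transcript. Myh4, the fast glycolytic chain, dominated with 11533 ± 1500 CPM per kilobase (mean ± SD over all animals), or 85.6 ± 3.49% of the sum over the 5 genes. Myh1 followed with 1043 ± 228.2 CPM per kilobase (7.86 ± 1.99%), then Myh2 with 658.3 ± 166.5 (4.98 ± 1.51%), the slow chain Myh7 with 199.4 ± 82.4 (1.51 ± 0.686%) and Myh8 with 2.58 ± 2.62 (0.0198 ± 0.0207%). The order Myh4, Myh1, Myh2, Myh7, Myh8 held within 97.5% of animals. In 10 animals Myh2 exceeded Myh1, in 2 animals Myh7 exceeded Myh2, and Myh4 was the highest and Myh8 the lowest in every animal. The spreads of the neighbours Myh1 and Myh2 overlapped across animals although their order within an animal rarely changed.

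Myh7 was the adult member that varied most between animals. It ranged from 206.4 to 4434 CPM with a median of 1161. Myh2 ran from 1627 to 9397 CPM (median 3886) and Myh1 from 3188 to 12987 CPM (median 6231). Myh4 was the steadiest, with 41080 to 94929 CPM and a median of 69547. On the variance-stabilised (VST) scale of the deposited table, close to log2, the SD of Myh7 around its group means was 0.48, against 0.35 for Myh2, 0.30 for Myh1, 0.19 for Myh4 and 0.20 for the median gene. In spread, Myh7 thus stood at percentile 93.8 of all tested genes and Myh4 at percentile 41.01. Myh8 stood at percentile 99.3 with an SD of 1.20, and its animals fell into a low and a high set.

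**Figure D1:**
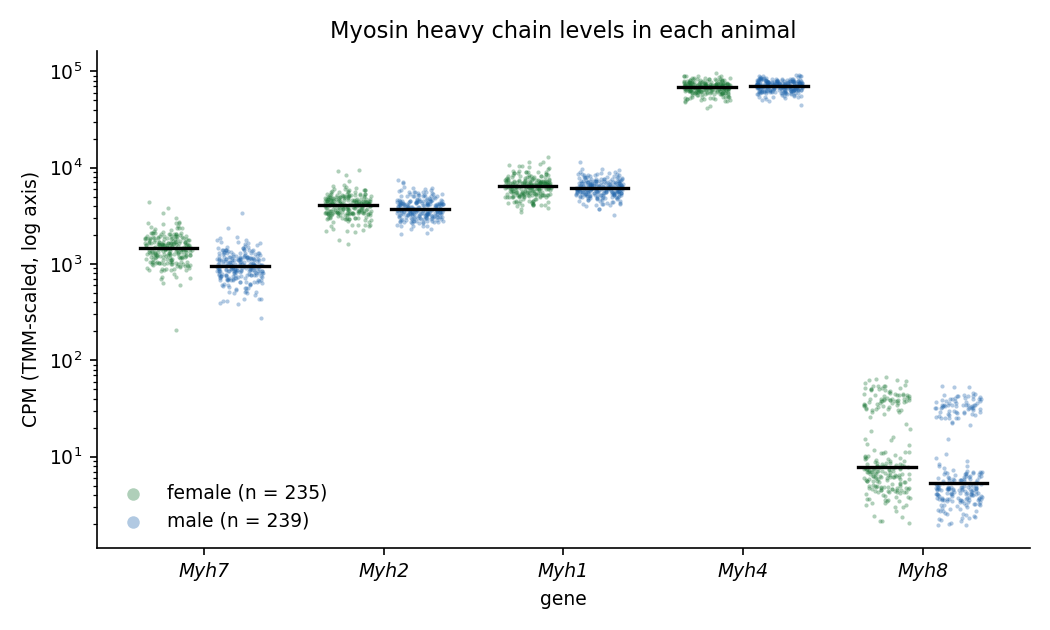
CPM of each myosin heavy chain gene on a log axis in each animal (points; females green, males blue), with the median of each sex as a black bar. Myh4 lies above all other genes, Myh7 is shifted downward in males (median 941 against 1449 CPM), and Myh8 splits into a lower and an upper cloud in both sexes.

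A few animals held the extremes of several members. The female DO244 of generation 19 had the highest Myh7 (4434 CPM), the second highest Myh2 (9187) and Myh1 (11509), the highest Myh8 (67.3) and the lowest Myh4 (41080). Its Myh4 share of the per-kilobase sum, 62.3%, was the lowest of all. At the other end, the female DO472 of generation 23 had the lowest Myh7 (206.4 CPM) and Myh2 (1627) and the highest Myh4 share, 93.03%. Both animals remained in all tests, and the correlations were also computed without DO244.

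The sexes differed most in the slow chain. In females Myh7 had a lowest, median and highest value of 206.4, 1449 and 4434 CPM, and in males of 272.5, 941 and 3381 CPM, so that the ranges overlapped widely while the male median lay below the female one. The means were 1508 ± 516.9 CPM in females and 981 ± 350 CPM in males (SD). The log2 difference, male minus female, was -0.62 (SE 0.04, 95% interval -0.71 to -0.53), that is 0.651 of the female level, with an adjusted p of 2.61e-35 by the quasi-likelihood test of edgeR over all genes. Sex accounted for 29.8% of the variance of Myh7 on the VST scale and for 0.672% to 2.18% in the other members. The share of the 5-gene sum was 1.84 ± 0.695% in females and 1.18 ± 0.493% in males.

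The fast chains differed little. Myh2, of the oxidative 2A fibre, had a median of 4107 CPM in females (1627 to 9397) and 3678 in males (2050.2 to 7413), and was lower in males by the test (log2 -0.10, SE 0.03, adjusted p = 0.00398, edgeR). Myh1, of the 2X fibre, had 6358 CPM in females (3428 to 12987) and 6064 in males (3188 to 11432), with a log2 difference of -0.06 (SE 0.03) that did not pass (adjusted p = 0.0715). Myh4, of the 2B fibre, had 68314 CPM in females (41080 to 94929) and 70873 in males (44113 to 92081), and was higher in males by a log2 of 0.05 (SE 0.02, adjusted p = 0.00565). The ranges of the sexes overlapped almost entirely in these 3 genes. For perinatal Myh8 the medians were 7.75 CPM in females (2.03 to 67.3) and 5.31 in males (1.94 to 54.4), a log2 difference of -0.37 (SE 0.13, adjusted p = 0.0103).

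Of the 5 members, 1 was thus called higher in males, against a background of 24.4% of 18823 genes, and 3 were called lower, against 30.6%. Calls for sex were so frequent among genes in general that the number of members called says little about the members. Myh7 differed from the other adult members in the size of its difference. With library totals taken as they were, without TMM, 3330 genes were called higher and 7469 lower in males, in place of 4595 and 5767, and the median over all genes moved from -0.01 to -0.05. On that scale Myh7 stayed lower in males (log2 -0.65), Myh1 passed (-0.09, adjusted p = 0.00366) and Myh4 did not (0.02, adjusted p = 0.171). Without the 5 libraries that went against their label, the same 4 members passed, with a log2 of -0.62 for Myh7, -0.11 for Myh2, 0.06 for Myh4 and -0.35 for Myh8.

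The lower level of Myh7 in males was seen in each generation. Female means were 1600.1 ± 510, 1481 ± 452.3, 1414 ± 582.05, 1518 ± 390.5 and 1529 ± 613.1 CPM in generations 17, 18, 19, 21 and 23 (SD, n = 48, 45, 49, 46 and 47). Male means were 1034 ± 299.2, 1009.8 ± 484.8, 964 ± 307.1, 929 ± 325.5 and 971 ± 301.5 CPM (SD, n = 46, 48, 50, 47 and 48). Fitted within a generation, the log2 difference ran from -0.55 to -0.71 and passed in all 5 generations, with adjusted p of 8.45e-10 to 3.00e-05 (edgeR), where 22.7%, 23.4%, 20.6%, 24.8% and 25.3% of all genes passed. Within a block it ran from -0.56 to -0.70 and also passed in all 5 (background 19.7%, 22.7%, 24.4%, 28.6% and 23.2% in blocks 1 to 5).

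The smaller differences were not called in most subsets, which hold fewer animals. Myh2 passed within generation 19 (log2 -0.21, adjusted p = 0.013, edgeR) and within block 1 (-0.25, adjusted p = 0.00197), and ran from -0.12 to -0.02 in the other generations and from -0.18 to 0.04 in the other blocks. The differences of Myh1 lay between -0.11 and 0.04 across generations, those of Myh4 between 0.02 and 0.07, and those of Myh8 between -0.61 and -0.16, with none called. By block Myh4 ran from -0.00 to 0.10 and Myh8 from -0.65 to -0.08, again with none called.

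**Figure D2:**
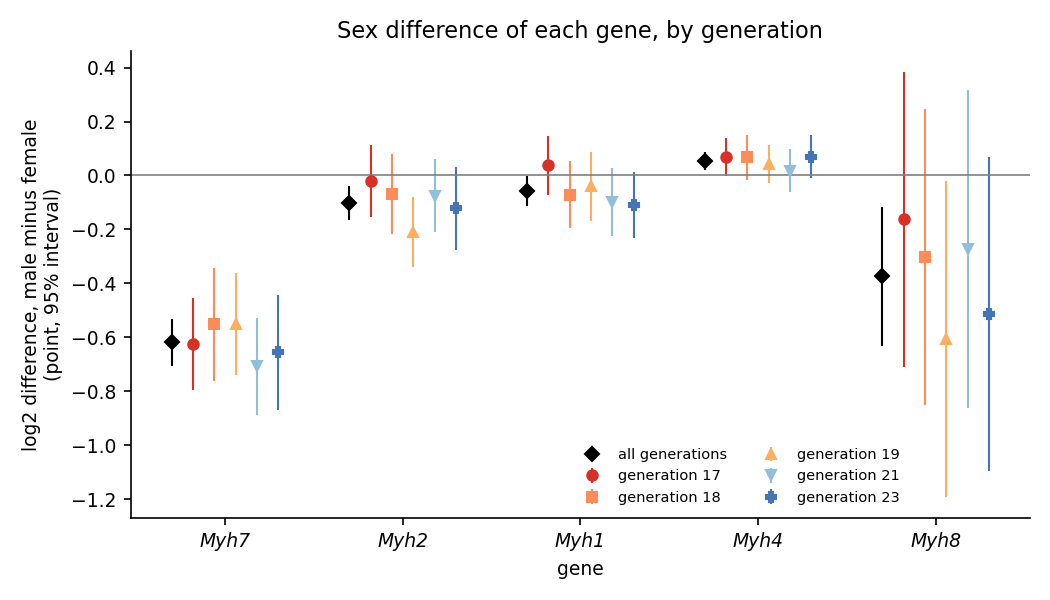
Log2 difference of males minus females (point, with 95% interval) for each gene over all generations and within generations 17, 18, 19, 21 and 23. Every interval of Myh7 lies below 0, from -0.55 to -0.71 at the point, those of Myh2, Myh1 and Myh4 lie close to 0, and those of Myh8 are wide.

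No member was called for generation, where 7.56% of all genes passed. The fitted generation means differed by at most a log2 of 0.14 in Myh7, 0.05 in Myh2, 0.09 in Myh1, 0.08 in Myh4 and 0.36 in Myh8 (adjusted p 0.278 to 0.954, edgeR). The female means of Myh2 stayed between 4022 and 4253 CPM and those of Myh1 between 6077 and 6759.6 CPM, within the spread between animals of a group (SD of 762 CPM or more in Myh2). Male means of Myh4, the most abundant member, ran from 68867 ± 7225 CPM in generation 23 to 72529 ± 8014 CPM in generation 17. For Myh8 the group medians ran from 7.39 to 8.95 CPM in females and from 4.61 to 6.06 in males. The interaction of sex and generation was not called for any member either (adjusted p 1 for each), and 0.531% of all genes passed.

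Library block moved with 1 member. Myh4 was called (fitted range 0.10 on the log2 scale, adjusted p = 0.0137, edgeR), the others were not (Myh1 0.0514, Myh7 0.0631, Myh8 0.707 and Myh2 0.708), and 47.4% of all genes passed. With library totals unscaled Myh4 no longer passed (adjusted p = 0.113). The range of Myh4 over the 5 blocks was larger than its difference between the sexes, 0.05. A range over 5 levels and a single difference are unlike measures. With block as a covariate the sex differences were -0.62 for Myh7, -0.10 for Myh2, 0.05 for Myh4 and -0.37 for Myh8, all still called, and Myh1 was called as well (-0.06, adjusted p = 0.0462). The spread between animals did not differ detectably between the sexes in any member (limma on absolute deviations, adjusted p 0.386 to 0.924, and 0.404 to 0.964 without the 5 libraries), and 5.55% of genes passed.

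The ratio of members within an animal removes the library total. Myh7 relative to Myh4, slow against fast glycolytic, had a mean log2 ratio of -5.56 ± 0.549 in females and -6.24 ± 0.556 in males (SD), a difference of -0.68 (95% interval -0.78 to -0.58). Myh7 also fell in males relative to Myh1 (-0.57) and to Myh2 (-0.53), each with an adjusted p of 2e-05 by a 2-sided permutation test of sex within generation. That value is the smallest that 100000 permutations adjusted over 6 ratios gave here, and no generation or block had the opposite sign. Among the fast chains, Myh2 to Myh4 differed by -0.15 (adjusted p = 0.000615, permutation; same sign in 5 generations and 4 blocks) and Myh1 to Myh4 by -0.10 (0.0059; 5 generations and 3 blocks). Myh2 to Myh1 differed by -0.04 (interval -0.10 to 0.01, adjusted p = 0.134, permutation) and did not pass. Without the 5 libraries that went against their label, Myh7 to Myh4, Myh1 and Myh2 differed by -0.68, -0.58 and -0.52, Myh2 to Myh4 by -0.16, Myh1 to Myh4 by -0.11 and Myh2 to Myh1 by -0.05 (unadjusted p = 0.0808, permutation; at most 0.0037 in the other 5). The female animals thus had more Myh7 for each of the fast chains, and slightly more Myh2 and Myh1 for the amount of Myh4.

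Among animals of the same sex and generation, Myh2 and Myh1 rose and fell together and opposite to Myh4. Correlations were taken on VST residuals from the means of the 10 groups, computed within the animals used for each test. Within a block only the sex means were removed, so differences between generations remain in those values. P-values from permutations of animals within these groups were adjusted over 14 tests. Myh2 and Myh1 had r = 0.514 (Spearman's rho 0.469), and Myh2 and Myh4 had r = -0.359 (rho -0.309). Myh1 and Myh4 gave r = -0.256 (rho -0.227), and each of these 3 had an adjusted p of 2.33e-05, from the smallest p that 100000 permutations can give. Without the 2 animals farthest in the first gene, r was 0.504, -0.338 and -0.250. Within the 5 blocks r ran from 0.318 to 0.634 for Myh2 and Myh1, from -0.195 to -0.440 for Myh2 and Myh4, and from -0.0376 to -0.400 for Myh1 and Myh4.

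The slow chain was coupled less closely. Myh7 had r = 0.251 with Myh2 (rho 0.179, adjusted p = 2.33e-05, permutation; 0.197 without the 2 farthest animals, and 0.126 to 0.401 within blocks). With Myh4 it had r = -0.168 (rho -0.106, adjusted p = 8e-04, permutation; -0.126 without 2, and -0.00953 to -0.472 within blocks). Among the blocks that pair passed in block 3 only. It passed in males alone (r = -0.201) and not in females alone (r = -0.138, adjusted p = 0.0598, permutation). With Myh1, Myh7 had r = 0.0749 (rho 0.0602, adjusted p = 0.129), and here the sexes differed. The r of Myh7 and Myh1 was 0.223 in females and -0.0889 in males, and the difference had p = 0.00249 and an adjusted p of 0.0149 over the 6 pairs of adult members (2-sided permutation of sex within generation). For the other 5 pairs the adjusted p of that difference was 0.833 to 0.977. Reads are shares of a library total of which Myh4 takes a large part, and the part of this sum in the negative r with Myh4 was not tested. On log2 CPM of unscaled totals, r with Myh4 was -0.439 for Myh2, -0.388 for Myh1 and -0.193 for Myh7. On that scale Myh7 and Myh1 passed as well (r = 0.109, adjusted p = 0.0279, permutation).

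**Figure D3:**
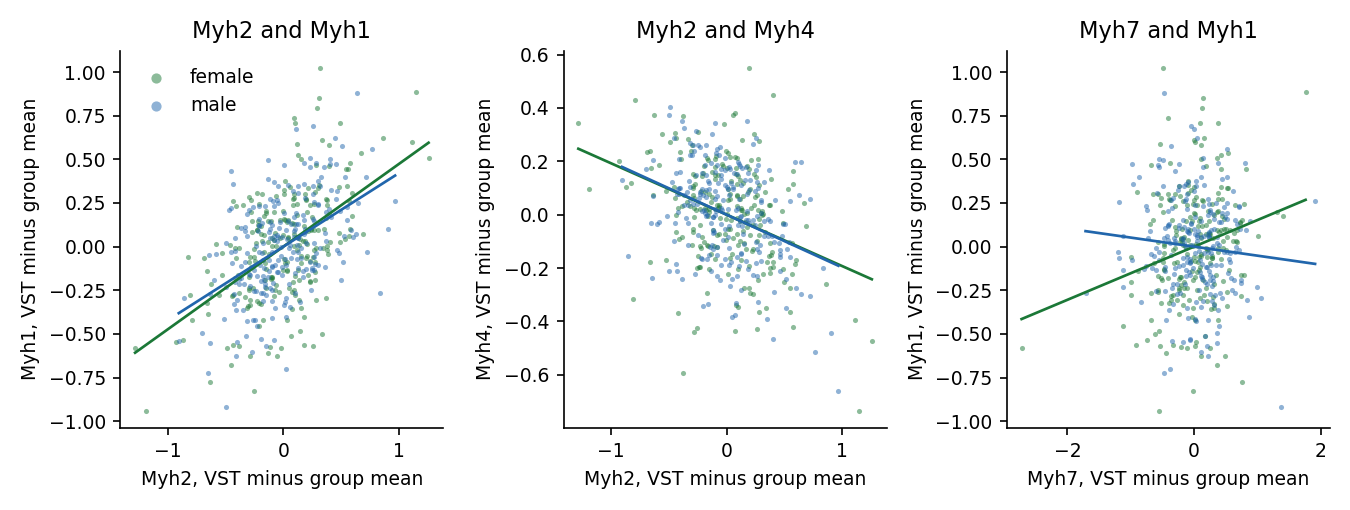
VST level minus its group mean of one member against another in each animal (females green, males blue, with a least-squares line per sex). Myh2 and Myh1 rise together (r = 0.514), Myh2 falls as Myh4 rises (r = -0.359), and the lines of Myh7 and Myh1 point different ways in females (r = 0.223) and males (r = -0.0889).

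Only the levels of Myh8, among the 5 members, left a wide gap. No animal had a level between 15.97 and 18.59 CPM, 322 animals lay below (median 4.90 CPM) and 32.1% of animals lay above (median 36.6 CPM). The gap is 0.22 wide on the log2 scale, against 0.00856 to 0.0319 for the widest gap of the other members with at least 10% of animals on each side, and 12 animals lay within 0.5 log2 units of it. The upper set held 12, 15, 18, 15 and 18 of the females of generations 17, 18, 19, 21 and 23 and 13, 17, 14, 15 and 15 of the males, which is 33.2% of females and 30.96% of males. Within both sets the female median was above the male one (6.15 against 4.41 CPM below the gap and 39.3 against 33.96 above it). These sets were made from the Myh8 level itself, so no test compared one set with the other.

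**Figure D4:**
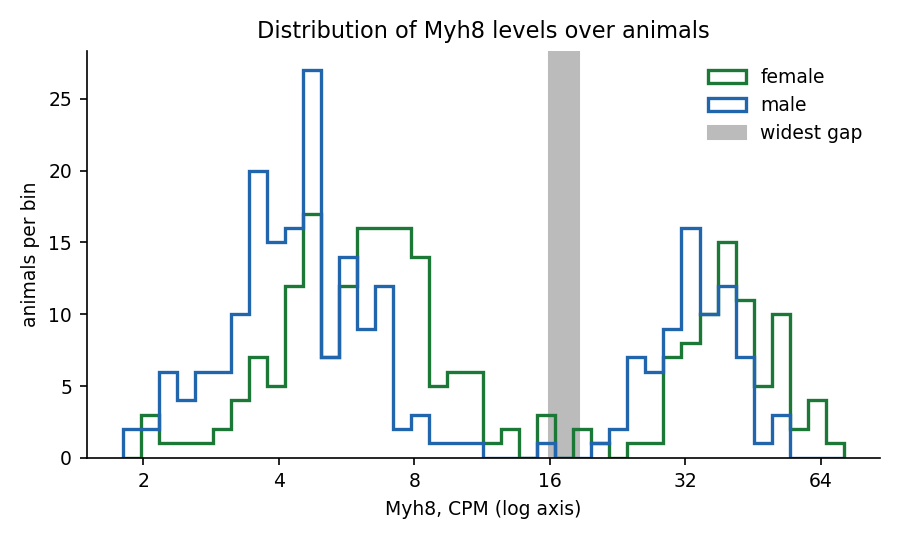
Number of animals by Myh8 level in CPM on a log2 axis (females green, males blue), with the widest gap in grey between 15.97 and 18.59 CPM. Both sexes have a lower set, with medians of 6.15 and 4.41 CPM, and an upper set, with medians of 39.3 and 33.96 CPM.

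In the upper set Myh8 went with Myh2 and Myh1. There its r was 0.549 with Myh2 and 0.586 with Myh1 (rho 0.582 and 0.564, each adjusted p 2.33e-05, permutation), and within blocks it ran from 0.415 to 0.783 and from 0.441 to 0.869. In the lower set it was weaker in value, 0.165 and 0.203 (rho 0.127 and 0.202, adjusted p 0.00493 and 0.000875, permutation). Neither passed there in males alone (0.117 and 0.139, adjusted p 0.193 and 0.124, permutation). Within blocks the lower-set r ran from 0.0109 to 0.306 with Myh2, which passed in block 5 only, and from 0.0562 to 0.351 with Myh1, which passed in block 3 only. With Myh4 it was -0.281 in the upper set (adjusted p = 0.00115, permutation; 0.222 in block 1 and -0.347 to -0.599 in the others) and 0.0357 in the lower (adjusted p = 0.534). With Myh7 neither passed (0.0518 and 0.0926). The perinatal transcript is similar to the adult ones, and of the 100-base windows of the longest Myh8 transcript, 3.37% also occur in Myh2, 2.63% in Myh1 and 1.44% in Myh4, where 100 bases is the read length. The read count of Myh8 was 0.00928% of that of Myh4 in the median animal, with a range of 0.00233% to 0.164%. The part of shared reads in the Myh8 values was not tested. Myh7 shared no such window with the other members and 11.2% of its windows with Myh6, and Myh2 shared 7.59% with Myh1.

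The genes most like Myh7 were the thin-filament genes of slow fibres. Over all animals, with group means removed, the 4 highest r were those of slow troponin C, Tnnc1 (0.954), slow troponin I, Tnni1 (0.931), tropomyosin 3, Tpm3 (0.914), and slow troponin T, Tnnt1 (0.909). The median size of r with Myh7 over all genes was 0.0435, and the lowest were those of Ei24 (-0.261) and Vkorc1l1 (-0.250). These are the most extreme of many values and carry no test.

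Myh2 and Myh1 had partly the same closest genes. For Myh2 they were Actn2, the Z-disc alpha-actinin of all fibres (0.721), Smtnl1 (0.694), myoglobin Mb (0.666) and cytosolic malate dehydrogenase Mdh1 (0.652). For Myh1 they were Mybpc1, the slow myosin-binding protein C (0.571), Mb (0.544), Actn2 (0.527) and the mitochondrial creatine kinase Ckmt2 (0.516). Parvalbumin, Pvalb, the calcium buffer of fast glycolytic fibres, was among the lowest for both, at -0.451 and -0.469, beside Prkab2 (-0.453) for Myh2 and Gpd2 (-0.403) for Myh1. Myh4 was closest to Mybpc2, the fast myosin-binding protein C (0.758), tropomyosin 1, Tpm1 (0.686), the calcium release channel Ryr1 (0.665) and fast troponin T, Tnnt3 (0.664), and farthest from Rflnb (-0.470) and Nt5c2 (-0.461). With block means removed, 17 of the 20 genes named as highest for the 5 members were kept, and with log2 CPM in place of the VST 18 were kept. Of the 2 lowest for Myh7, 1 was kept with block means removed and 0 with log2 CPM. Of the 2 lowest for Myh4, 1 was kept under each, and those for Myh2, Myh1 and Myh8 were all kept.

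The closest genes of Myh8 were of another kind, since they lay near it on chromosome 11. The highest r were those of Cfap52 (0.712, its start 0.648 Mb from that of Myh8), Gm4535 on chromosome 7 (0.643), Pld2 (0.488) and Aldh3a2 (0.439), and the lowest were Ntn1 (-0.507, 0.932 Mb away) and A530017D24Rik (-0.441). Of the 50 genes with the largest size of r, 46 were on the same chromosome as Myh8 and 44 within 10 Mb, where 7.70% and 1.87% of all genes lie. Among the 50 of the other members the same-chromosome count was 4 for Myh2, 3 for Myh1, 3 for Myh4 and, on chromosome 14 with 3.34% of all genes, 2 for Myh7, although Myh2, Myh1 and Myh4 lie in the same row of genes. The median size of r with Myh8 was 0.0941 for genes within 5 Mb, 0.0899 at 5 to 10 Mb, 0.0678 at 10 to 20 Mb, 0.0396 at 20 to 40 Mb, 0.0426 at 40 to 80 Mb and 0.0358 on other chromosomes. For the genes within 5 Mb and on other chromosomes it was 0.0807 and 0.0639 with Myh2. With Myh1 it was 0.0690 and 0.0537, and with Myh4 0.0946 and 0.0858. The r with Myh8 are over all animals and so span the 2 sets of Myh8 levels. In the lower and the upper set, r was -0.0734 and 0.0768 for Cfap52, -0.0532 and 0.201 for Gm4535, -0.125 and 0.0847 for Pld2, and 0.102 and 0.302 for Aldh3a2. It was -0.0837 and -0.0879 for Ntn1, and -0.101 and -0.215 for A530017D24Rik. The sets were divided on the Myh8 level, which narrows its range inside each.

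**Figure D5:**
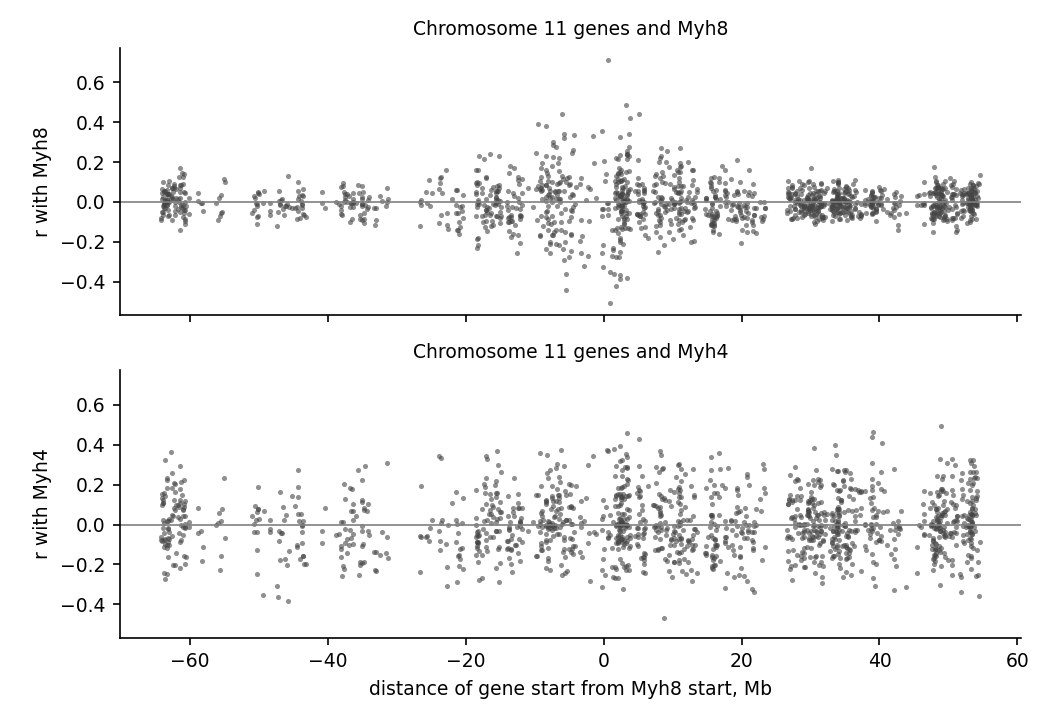
Pearson r of VST residuals with Myh8 (upper panel) and with Myh4 (lower panel) for each tested gene of chromosome 11, against the distance of its start from the Myh8 start in Mb. Large values of both signs gather around Myh8 in the upper panel, up to 0.712, and no such peak stands in the lower panel.

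Other genes of both rows were looked up whatever their values. Embryonic Myh3 (median 7.36 CPM) was lower in males by a log2 of -0.68 (adjusted p = 1.07e-18, edgeR) and had r = 0.356 with Myh8 and 0.369 with Myh7. Myh6, a chain of heart muscle next to Myh7 (median 13.1 CPM), was lower in males by -0.41 (adjusted p = 0.000576, edgeR). It had r = 0.336 with Myh7, with which it shares sequence. Extraocular Myh13 (3.29 CPM) was lower by -0.19 (adjusted p = 0.00557, edgeR). Mhrt, antisense to Myh7, had a median of 0.245 CPM, a log2 sex difference of -0.79 (adjusted p = 8.24e-21, edgeR) and r = 0.568 with Myh7, and reads of the gene on the other strand cannot be told apart from its own without strand.

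The noncoding genes of the chromosome 11 row differed in their r with the members. The noncoding 2310065F04Rik (77.1 CPM) was higher in males (0.35, adjusted p = 1.01e-08, edgeR) and had r = -0.327 with Myh8. The antisense Myhas and 9430073C21Rik did not pass for sex (log2 0.04 and -0.09, adjusted p 0.77 and 0.353). The r of 9430073C21Rik was 0.358 with Myh2, which it overlaps, and 0.263 with Myh1, and that of Myhas was 0.186 with Myh1, which it overlaps, and -0.213 with Myh8. Myhas levels also left a gap, from 6.45 to 9.28 CPM, and 89 animals, or 18.8%, lay above it. Of these 89 animals 16 were in the upper set of Myh8 and 73 in the lower, while 136 animals were high in Myh8 alone.

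Companion genes of the slow fibre were lower in males as well. On the list of 13 slow contractile genes, 12 were lower in males, 0 higher and 1 not called, with a median log2 of -0.43 against -0.01 over all genes (called lower: 30.6% of all genes). The largest differences were those of the slow light chain Myl6b (-0.67), Tnni1 (-0.58), Tnnc1 (-0.54) and Tnnt1 (-0.51), and Csrp3 (0.09, adjusted p = 0.234) was the 1 not called. The median r of the list with Myh7 was 0.827, with a range of 0.208 to 0.954. The calcium pump Atp2a2 (r = 0.886) and the ventricular light chain Myl2 (r = 0.874) were also near Myh7.

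Fast contractile genes went with Myh4 in level among animals. Of 13 genes, 8 were higher and 4 lower in males (24.4% and 30.6% of all genes) and 1 was not called, with a median log2 of 0.08, and with library totals unscaled 7 were higher and 4 lower. Those lower were Mybpc2 (-0.14), the fast calcium pump Atp2a1 (-0.10), the fast regulatory light chain Mylpf (-0.07) and calsequestrin Casq1 (-0.07). The largest increases included fast troponin I, Tnni2 (0.13), and Myoz1 (0.13). Actn3 did not pass (0.02, adjusted p = 0.425). The r with Myh4 had a median of 0.587 and ran from 0.404 to 0.758.

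Of 24 regulators known for fibre type, 16 were higher in males, 2 lower and 6 not called (24.4% higher and 30.6% lower among all genes), with a median log2 of 0.12 (15, 5 and 4 without TMM). Those higher in males included Tead4 (0.50), Eya4 (0.39) and Tead1 (0.31), and the coactivators Vgll2 (-0.28) and Ppargc1b (-0.27) were lower. Among animals, Prox1, a factor of slow fibres, had r = 0.565 with Myh7 and did not pass for sex (-0.05). Sox6, a repressor of slow genes, had r = 0.352 with Myh4 and -0.148 with Myh7. The receptor Esrrg had r = 0.506 with Myh2 and -0.414 with Myh4.

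Proteins that fold or hold myosin were mixed. For each list that follows, 24.4% of all genes were called higher and 30.6% lower in males. On a list of 14 chaperone and thick-filament genes, 5 were higher and 7 lower (5 and 9 without TMM), with a median log2 of -0.05. Mybph, a thick-filament protein, was lowest at -1.80, Mybpc1 was lower by -0.31, and the chaperones Hspa1b (1.11) and Hsp90aa1 (0.30) were higher. Of 9 other myosin heavy chains, 5 were lower in males (Myh3, Myh6, Myh7b at -0.44, Myh13 and Myh14 at -0.09), 2 were higher (nonmuscle Myh9 at 0.12 and smooth muscle Myh11 at 0.10) and 2 not called. Among 18 tested genes of developing, regenerating or denervated muscle, 7 were higher and 9 lower, with a median log2 of -0.03. The cardiac actin Actc1 (-1.78) and myogenin Myog (-0.997) were lower, and the receptor kinase Musk (0.77) was higher. The r of that list with Myh8 had a median of 0.0123 and was highest, 0.356, in Myh3, a gene of the same row.

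Markers of other cells in the tissue were mixed between the sexes. Of 25 markers of 7 types that are not fibres, 11 were higher in males, 7 lower and 7 not called, against 24.4% higher and 30.6% lower among all genes, and without TMM 9 were higher and 9 lower. Of 6 adipocyte markers 5 were lower and Lep was higher, and their summed level ran from 89.3 to 1257 CPM in females and from 101.1 to 704 CPM in males. All 3 endothelial markers were higher in males, and 2 of them without TMM, where Pecam1 did not pass (adjusted p = 0.476, edgeR; summed level 116.3 to 273.9 CPM in females and 125.7 to 253.95 in males). All 3 of smooth muscle were higher under both scalings (97.3 to 306.7 and 105.04 to 260.2). None of 4 macrophage markers passed (15.8 to 67.3 and 12.5 to 54.8 CPM), and without TMM C1qa was lower (-0.10). Among 3 markers each, erythroid cells had 2 higher (1 without TMM), satellite cells 2 higher and 1 lower, and Schwann cells 1 lower (2 without TMM). Of 3 tested heart markers Myh6 alone was called, and of 7 fibre markers 4 were higher and 2 lower. Across animals the r of these 25 markers lay between -0.0225 and 0.105 with Myh7, between -0.237 and 0.355 (Cdh5) with Myh2, between -0.113 and 0.262 (Cdh5) with Myh1, between -0.411 (Kdr) and 0.228 with Myh4 and between -0.199 and 0.0825 with Myh8. Their part in the differences of the members was not tested.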

How the data were processed

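Poly(A) RNA of 474 muscles (235 from females, 239 from males) was sequenced as 100-base read pairs, and per the study's methods the authors treated both mates as single reads, mapped them to the joint transcripts of the 8 founders, and deposited expected counts per gene estimated by the EMASE algorithm through GBRS. Versions of those tools are not given in the sources used here. A second deposited table holds a score, the DESeq2 variance-stabilising transform (VST) of each count. The methods describe a regression of batch effects but do not say whether the VST values had passed through it. The deposited VST differed between library blocks (limma called 7559 of 18823 genes). Positions are of GRCm38 (GENCODE M21), as the submitters' processing notes name that build.

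After rounding the expected counts to whole numbers, genes were tested with edgeR version 4.0.16 under R 4.3.3 (filterByExpr, minimum count 10; TMM factors 0.871 to 1.29; quasi-likelihood F-test fitted on all genes), with limma 3.58.1 and DESeq2 1.42.0. Descriptions, permutations and figures were made in Python 3.11.15 (scipy 1.17.1, pandas 2.3.3). P-values were adjusted by Benjamini-Hochberg with a threshold of 0.05. Log2 CPM had a prior count of 2 and member ratios a pseudocount of 0.5. Sex was tested with generation as covariate, generation with sex, and block and the interaction with both. The members, the gene lists and the alternatives were chosen with earlier results of these data known, so no list serves as independent support. A test on simulated counts recovered 100% of the sex changes of at least 0.3 on the log2 scale among 200 changed genes. Since Myh8 levels form separate sets, its tested correlations with other members were computed inside them, which made 14 tests in place of the 10 pairs first planned. Its r with genes that are not members is over all animals, across both sets, and carries no test. Genes named beside the members were those of highest (4) and lowest (2) r with each member, those overlapping or neighbouring them, and up to 4 called genes of largest difference per list, with others chosen after their values were seen (such as Tnni2, Myoz1 and Actn3). Alternatives were unscaled totals, members left out of the total, no filter, DESeq2, limma, block as covariate, subsets by generation and block, and omission of animals. Wave, a covariate of the study, is not in the labels and was not fitted. P-values measure the spread between animals, each with 1 library.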

Additional observations from a re-analysis of the deposited data

Results flagged for a closer look

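The relation between slow Myh7 and fast Myh1 among animals differed between females and males. The Pearson r of VST residuals was 0.223 in females and -0.0889 in males (Spearman's rho 0.190 and -0.0746), and a permutation test of the difference gave an adjusted p of 0.0149 over the 6 pairs of adult members. In females r was above 0 in each generation (0.127 to 0.322) and each block (0.0980 to 0.387). In males it ran from -0.224 to 0.157 by generation and from -0.228 to 0.0621 by block. Without the 2 animals farthest in Myh7 of each sex, r was 0.156 and -0.126, and without DO244 alone the adjusted p of the difference was 0.0384 (permutation). Without the libraries that went against their sex label it was 0.0108. The test was chosen after seeing the data.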

How the results depend on the processing

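The sex difference of Myh7 kept its direction and passed in every alternative run. Outside the subsets by generation and block, 32 of 35 member values for sex kept their direction and their side of the threshold and 0 changed sign, and within subsets 19 of 50 did and 5 changed sign. In place of 4 members, 2 were called for sex within generation 19 and within block 1, and 1 in each of generations 17, 18, 21 and 23 and of blocks 2, 3, 4 and 5, where fewer animals were tested. The sign turned for Myh2 in block 5 (0.0379), for Myh1 in block 3 (0.00154), block 5 (0.0190) and generation 17 (0.0376), and for Myh4 in block 3 (-0.00490), none of them called. With library totals unscaled, 0 members in place of 1 were called for block (edgeR), and the cause was not tested.

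In place of 10 of 14 correlations, 4 were called within block 1, 5 within block 2 and 4 within block 4. The sign of r turned for Myh7 and Myh1 in males (-0.0889), block 2 (-0.0303) and block 4 (-0.0268). For Myh7 and Myh8 it turned below the gap in block 2 (-0.113) and block 4 (-0.0294), and above it in males (-0.0777), block 2 (-0.0283), block 4 (-0.232) and without the 2 farthest animals (-0.0278). For Myh4 and Myh8 it turned below the gap on unscaled totals (-0.0450), in block 3 (-0.133) and in block 4 (-0.105), and above it in block 1 (0.222). Of these, only Myh4 and Myh8 above the gap was called with the main processing, where it was tested in the upper set alone. The cause of these turns was not tested. Over all alternatives, 37 of 51 counts stayed within 1.5 times their value.

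No paired analysis was possible because each animal number occurs once and marks no shared litter, cage or day in the labels. Depth limits Myh8 most, with 117 counts in its lowest library. Subsets by block (91 to 96 libraries) or by generation called Myh2 in block 1 and generation 19 only, and Myh4 in none. Over all animals the log2 difference was -0.10 for Myh2 and 0.05 for Myh4.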
